A study of Mus musculus with 6 samples.

Results

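The genes described are the ephrins, slits and netrins, which are signals carried between cells, and the receptors that bind them. They were taken by gene symbol from the deposited table: ephrins A and B (Efna, Efnb), slits (Slit), netrins (Ntn, Ntng), Eph receptors (Epha, Ephb), roundabout receptors (Robo), UNC5 receptors (Unc5), Dcc and neogenin (Neo1). The symbols matched 41 of 54433 genes, 17 for ligands and 24 for receptors. RNA was sequenced from MC3T3-E1, a line of osteoblast-like cells from mouse calvarial bone. The 3 WT libraries are controls, made from unadapted wild-type cells kept in Dulbecco's modified Eagle medium with serum and antibiotics. The 3 other libraries (FR) came from cells of the same line, in the same basal medium, that had been adapted with a gradient of 10 ppm fluoride and had become resistant to 30 ppm. Their treatment label also names a gradient of 30 ppm, which may mean adaptation or exposure at harvest. The effect of being resistant and that of any fluoride in the medium therefore cannot be told apart. The labels do not say how many clones the FR cells stem from, nor whether each library had a culture of its own, so the p-values speak only of library-to-library spread, which may be technical. The title of the series names mice as the source, whereas the sample labels, followed here, name the cell line.

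Ephrins are membrane-bound ligands: A-type ephrins are held by a lipid anchor and B-type ephrins cross the membrane, so their signal passes between touching cells and can run in both directions. In bone, ephrin-B2 and its receptor EphB4 are best known for contact between osteoclasts and osteoblasts, and EphA2 and ephrin-B1 have also been studied there. Slits and most netrins are secreted proteins first known for guiding axons, and both are made by bone cells. The netrin-G proteins are anchored in the membrane. Slits act through Robo receptors, and netrin-1 through Dcc, neogenin and the UNC5 family. Neogenin also serves as a receptor for repulsive guidance molecules and as a partner in bone morphogenetic protein signalling.

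Library totals lay between 19246119 and 27140662 expected counts, and 3 counts in a library corresponded to 0.11 to 0.156 CPM (counts relative to the library total, scaled with TMM factors), which covers counting error only. Of 9 osteoblast markers, Runx2, Col1a1, Col1a2, Sparc and Spp1 were well above this level, while Sp7, Alpl, Bglap and Ibsp were at most 1 CPM in every library. The summed osteoblast marker level was 17300 to 17600 CPM in WT and 4850 to 4880 CPM in FR, mostly from Col1a1 and Col1a2. Sparc went from 1650 ± 13.6 to 685 ± 9.04 CPM and Spp1 from 1390 ± 22 to 384 ± 23.7 CPM. Runx2 went from 69.8 ± 1.1 to 57.2 ± 0.694 CPM (SD, n = 3 each). The endothelium is known for ephrin-B2 and EphB4, and 5 of 6 endothelial markers were at most 1 CPM in every library (summed level 3.34 to 3.83 CPM in WT and 2.12 to 2.44 in FR). Among 6 neuron markers, Rbfox3 and Elavl4 were at 0 in every library, and the summed level was 21.5 to 23.6 CPM in WT and 12.3 to 14.2 CPM in FR, mostly from Tubb3. The 6 macrophage markers summed to 6.56 to 7.99 CPM in WT and 10.3 to 12.3 CPM in FR. Csf1r rose from 0.587 ± 0.2 to 7.14 ± 0.658 CPM and Cd68 from 0.467 ± 0.237 to 2.26 ± 0.121 CPM, while Lyz2 fell from 6.15 ± 0.535 to 1.54 ± 0.196 CPM (SD, n = 3 each). Ptprc, Aif1 and Adgre1 were at most 0.26 CPM in every library, with Adgre1 at 0 in every FR library. The part of these other markers in the results was not tested. In bulk RNA, fewer cells of a type and less RNA per cell cannot be told apart.

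Of the 41 genes, 22 passed the expression filter and were tested with edgeR. In FR, 7 were higher and 9 lower at an adjusted p under 0.05, with 6 not called. Over all 14889 tested genes 70.1% were called, 34.6% higher and 35.5% lower, so the share of called members (16 of 22) was near the background. Changes of at least 2-fold were found for 8 members, 1 higher and 7 lower, where 18.8% of all tested genes passed this rule, 7.4% higher and 11.4% lower. The CPM of the groups did not overlap for 17 of the 22 tested members, near the 72.4% of all tested genes. Ligands and receptors each held genes that moved in either direction. Among 14 tested ligand genes 3 were higher and 6 lower (64.3% called, 42.9% lower, median log2 fold change −0.17). Among 8 tested receptor genes 4 were higher and 3 lower (87.5% called, 37.5% lower, median 0.27). The median over all tested genes was 0. Log2 fold changes are FR over WT throughout, with the standard error of the fit.

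**Figure D1:**
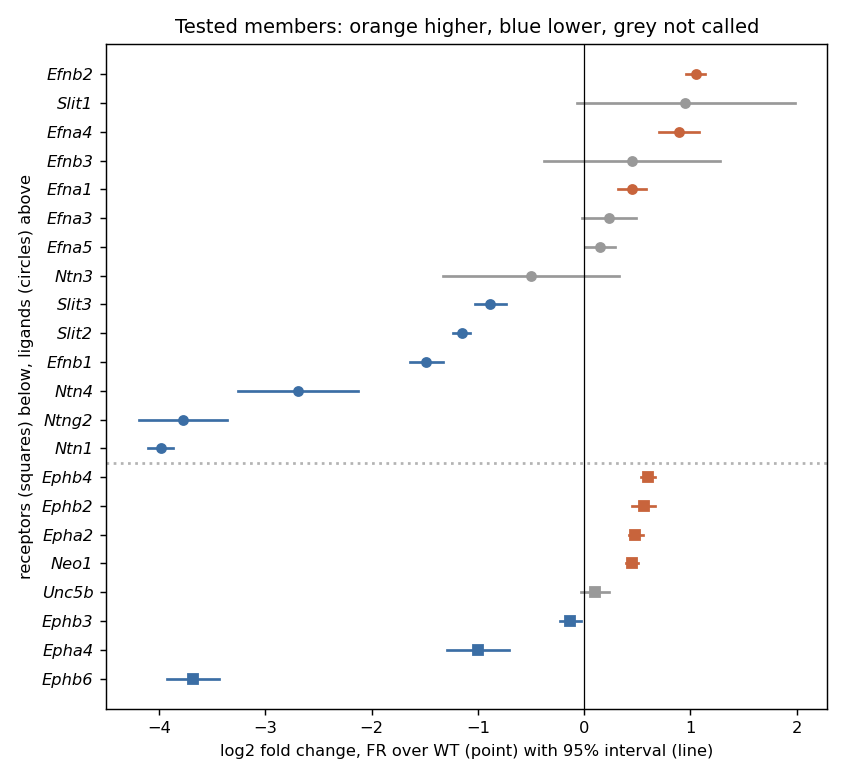
Log2 fold change (FR over WT, horizontal axis) of the 22 tested genes with its 95% interval, ligands as circles above the dotted line and receptors as squares below it. Orange marks genes higher in FR, blue genes lower and grey genes not called; Ntn1, Ntng2 and Ephb6 lie below −3, and no gene is called above 1.05.

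Of the 5 ephrin-A genes 4 were tested, and 2 were higher and 0 lower in FR, beside 34.6% higher and 35.5% lower of all tested genes. Efna1 (ENSMUSG00000027954), a ligand of EphA2, was at 21, 21.9 and 21.2 CPM in WT and at 30.4, 30.1 and 27.0 CPM in FR. Each FR library lay above each WT library, and Efna1 rose 1.37-fold (log2 fold change 0.45 ± 0.06 SE, edgeR adjusted p = 2.53e-07). Efna4 (ENSMUSG00000028040) was at 7.59, 8.77 and 7.72 CPM in WT and at 15.4, 14.7 and 14.6 CPM in FR, again without overlap, and rose 1.85-fold (0.89 ± 0.09 SE, edgeR adjusted p = 1.49e-09). An antisense gene that shares exon sequence with Efna4 had only 13 to 21 counts in a library. The values of Efna5, at 19.9, 18.5 and 18.1 CPM in WT and 20.3, 20.5 and 22.1 CPM in FR, did not overlap but did not pass (0.15, 95% interval 0.01 to 0.29, edgeR adjusted p = 0.054). Efna3, at 5.75, 5.78 and 7.57 CPM in WT and 7.06, 7.43 and 7.89 CPM in FR, overlapped and did not pass (0.23, 95% interval −0.02 to 0.49). Each of these calls appeared when 1 WT library was left out, for Efna5 without WT replicate 1 (edgeR adjusted p = 0.0432) and for Efna3 without WT replicate 3 (edgeR adjusted p = 0.0153). Efna2 had 2 to 7 counts in a library and was not tested.

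The 2 expressed ephrin-B genes moved in opposite directions. Efnb1 (ENSMUSG00000031217), the X-linked gene whose loss causes craniofrontonasal malformation, was at 26.7, 25.1 and 28.2 CPM in WT and at 9.82, 9.31 and 9.4 CPM in FR. No FR library came near the WT range, and Efnb1 fell 2.81-fold (log2 fold change −1.49 ± 0.08 SE, edgeR adjusted p = 1.86e-16). Efnb2 (ENSMUSG00000001300), a ligand of EphB4, was at 31.1, 30.7 and 31.6 CPM in WT and at 65.7, 64.6 and 63.5 CPM in FR. All 3 FR libraries were above all WT libraries, and Efnb2 rose 2.07-fold (1.05 ± 0.04 SE, edgeR adjusted p = 1.9e-18), the one member at least 2-fold higher. Per length of transcript, Efnb2 was at 0.792, 0.831 and 0.762 times the level of Efnb1 in WT and at 4.55, 4.72 and 4.59 times in FR (exact two-sided permutation p = 0.1, the smallest that 3 against 3 libraries allow). Both genes already separated the groups, in opposite directions, so this p was fixed in advance and adds no support. Efnb3 was at 0.427 to 0.819 CPM in WT and 0.425 to 1.16 CPM in FR and did not pass (0.45, 95% interval −0.38 to 1.28), and its direction turned without FR replicate 2 (−0.04).

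Both expressed slit genes were lower in FR. Slit2 (ENSMUSG00000031558) was at 97.4, 99.7 and 99.3 CPM in WT and at 43.7, 44.4 and 45.6 CPM in FR. The libraries of each group lay close together and the groups far apart, and Slit2 fell 2.22-fold (log2 fold change −1.15 ± 0.04 SE, edgeR adjusted p = 6.33e-21). Slit3 (ENSMUSG00000056427), known as a bone-derived factor that acts on vessels and osteoblasts, was at 26.3, 25.3 and 23.4 CPM in WT and at 13.9, 13.6 and 13.0 CPM in FR. It fell 1.85-fold without overlap (−0.89 ± 0.07 SE, edgeR adjusted p = 5.82e-12). Slit1 had 3 to 11 counts in a WT library and 8 to 12 in an FR library, and did not pass (0.95, 95% interval −0.07 to 1.98, edgeR adjusted p = 0.0915). It was called higher by limma-voom (adjusted p = 0.0489) and without WT replicate 2 (edgeR adjusted p = 0.0275). Summed over the 3 genes and per length, slit transcripts were at 17.5 ± 0.243 CPM per kb in WT and 8.4 ± 0.0463 CPM per kb in FR (SD, n = 3 each).

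Netrin genes showed the largest falls among the ligands. Ntn1 (ENSMUSG00000020902), which encodes netrin-1, was at 103, 101 and 106 CPM in WT and at 6.18, 6.67 and 6.66 CPM in FR. Every FR library was far below every WT library, and Ntn1 fell 15.8-fold (log2 fold change −3.98 ± 0.06 SE, edgeR adjusted p = 8.32e-30). Ntn4 (ENSMUSG00000020019), a netrin related to laminin chains that sits in basement membranes, was low, at 3.66, 2.79 and 3.12 CPM in WT and 0.415, 0.4 and 0.661 CPM in FR. It fell 6.47-fold (−2.69 ± 0.27 SE, edgeR adjusted p = 8.25e-10). Ntng2 (ENSMUSG00000035513), which encodes the membrane-anchored netrin-G2, was at 9.09, 8.85 and 6.75 CPM in WT and 0.623, 0.479 and 0.708 CPM in FR, a 13.7-fold fall (−3.77 ± 0.20 SE, edgeR adjusted p = 6.28e-16). The noncoding gene 6530402F18Rik shares exon sequence with Ntng2 on the same strand and went from 176 to 226 counts in a WT library to 16 to 24 in an FR library, so how reads were split between these genes is uncertain. Ntn3 was at 0.77, 0.737 and 0.429 CPM in WT and 0.467, 0.559 and 0.331 CPM in FR and did not pass (−0.50, 95% interval −1.33 to 0.33), and it overlaps the more abundant Tbc1d24. Ntn5 had 1 to 3 counts in a library and Ntng1 had 0 in all 6, which at 3 counts allows up to 0.156 CPM in the shallowest library.

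**Figure D2:**
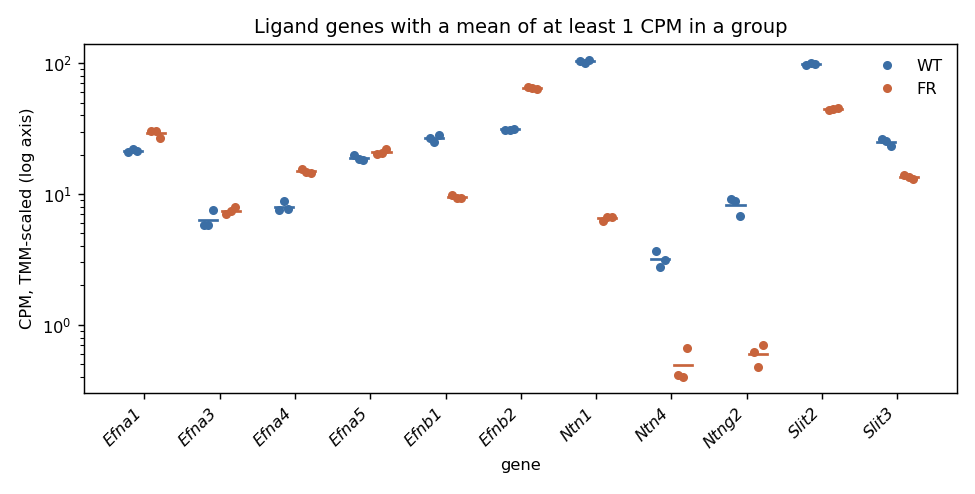
CPM per library (points) and group mean (short lines) on a log axis for the 11 ligand genes with a mean of at least 1 CPM in a group, WT in blue and FR in orange. Ntn1 goes from over 100 CPM to under 7 CPM, Efnb1 and Efnb2 part in opposite directions, and Efna3 is the one gene whose groups overlap.

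Of the 24 receptor genes 8 were tested, and 2 of them changed by at least 2-fold. Both were lower in FR, as were 11.4% of all tested genes by this rule. Epha2 (ENSMUSG00000006445), which encodes a receptor for A-type ephrins, was at 91.4, 92.1 and 91.4 CPM in WT and at 127, 130 and 126 CPM in FR. The groups did not overlap, and Epha2 rose 1.40-fold (log2 fold change 0.48 ± 0.03 SE, edgeR adjusted p = 1.1e-13). Epha4 (ENSMUSG00000026235), a receptor that binds ephrins of both types, was at 6.01, 6.83 and 6.36 CPM in WT and at 3.32, 2.84 and 3.45 CPM in FR, a 2.01-fold fall (−1 ± 0.14 SE, edgeR adjusted p = 3.82e-07). Epha8 did not pass the filter, at 10, 28 and 17 counts in the WT libraries against 1, 1 and 2 in the FR libraries. With no filter it was called lower (−3.44, edgeR adjusted p = 9.88e-07). Of the 6 fits that left out 1 library, Epha8 passed the filter in 4, through its WT counts, and was called in each. In the rest it was not tested. These fits share libraries, so they are not separate evidence.

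Of 4 tested EphB receptor genes 2 were higher and 2 lower, beside 34.6% higher and 35.5% lower of all tested genes. Ephb4 (ENSMUSG00000029710), the receptor for ephrin-B2, was at 66.1, 66.3 and 69.2 CPM in WT and at 98.9, 103 and 103 CPM in FR. It rose 1.52-fold with every FR library above every WT library (log2 fold change 0.60 ± 0.04 SE, edgeR adjusted p = 8.14e-15). The neighbouring Zan shares exon sequence with Ephb4 on the other strand and had 132 to 180 counts in a WT library and 359 to 457 in an FR library. Since strandedness is not stated, reads from the shared stretch could belong to either gene. Ephb2 (ENSMUSG00000028664) was at 26.7, 25.8 and 27.4 CPM in WT and at 38.7, 40.3 and 38.5 CPM in FR, a 1.47-fold rise (0.56 ± 0.05 SE, edgeR adjusted p = 1.82e-10). Ephb6 (ENSMUSG00000029869), which encodes a receptor without kinase activity, was at 22.7, 23.7 and 22.2 CPM in WT and at 1.97, 1.4 and 2.03 CPM in FR. It fell 12.8-fold (−3.68 ± 0.12 SE, edgeR adjusted p = 2.69e-21), the largest change among the tested receptor genes. Ephb3 (ENSMUSG00000005958), at 44.0, 45.8 and 43.5 CPM in WT and 40.4, 42.5 and 39.0 CPM in FR, was slightly lower (−0.13 ± 0.05 SE, edgeR adjusted p = 0.0195). This call ended with DESeq2 (adjusted p = 0.0706), against a 1.2-fold change (edgeR glmTreat adjusted p = 1), without WT replicate 2 (edgeR adjusted p = 0.0559) and without FR replicate 3 (edgeR adjusted p = 0.0942). Ephb1 had 1 count in all libraries together.

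The netrin receptor genes were represented by Neo1 and Unc5b. Neo1 (ENSMUSG00000032340), which encodes neogenin, was at 123, 121 and 125 CPM in WT and 168, 170 and 166 CPM in FR. It rose 1.37-fold without overlap (log2 fold change 0.45 ± 0.03 SE, edgeR adjusted p = 1.02e-13). Unc5b (ENSMUSG00000020099), a netrin receptor known to mediate repulsion, was at 25.0, 24.4 and 23.8 CPM in WT and 27.0, 24.1 and 27.5 CPM in FR, which overlapped and did not pass (0.10, 95% interval −0.03 to 0.23). It was called without FR replicate 2 (0.15, edgeR adjusted p = 0.0412). Per length, Neo1 was at 0.929, 0.932 and 0.917 times the level of Ntn1 in WT and at 21.1, 19.8 and 19.4 times in FR (exact two-sided permutation p = 0.1, the smallest possible here). As Neo1 rose and Ntn1 fell without overlap, that p was also fixed in advance. Dcc had 5, 0 and 1 counts in WT and 0 in each FR library, and Unc5a, Unc5c and Unc5d had 0 in every library.

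None of the Robo genes, the slit receptors in this gene set, was detected above a trace. Robo1 had 2 counts in each WT library and 0 in each FR library, Robo2 had 3 counts in WT and 1 in FR over all libraries, and Robo4 had 1 count in WT. Robo3, the most counted, stood at 6, 3 and 10 counts in the WT libraries against 4, 7 and 8 in the FR libraries. These levels are too low for a comparison at this depth. Of the Eph receptor genes, Epha3, Epha6 and Epha7 were at 0 in every library, Epha1 had 1 to 6 counts, Epha5 had 0 to 4 and Epha10 had 0 in WT and 1 or 2 in FR. In all, 7 of the 41 genes had no count in any library.

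**Figure D3:**
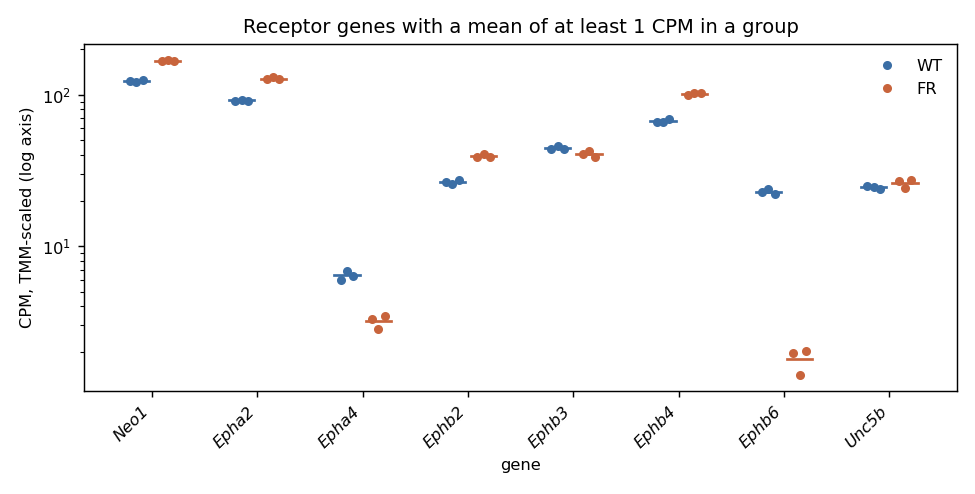
CPM per library (points) and group mean (short lines) on a log axis for the 8 receptor genes with a mean of at least 1 CPM in a group, WT in blue and FR in orange. Neo1, Epha2, Ephb4 and Ephb2 are higher in FR, Ephb6 is at most 2.03 CPM in FR against over 22 CPM in WT, and the Unc5b values of the groups overlap.

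Divided by gene length, the order of mean ligand levels in WT was Ntn1 (18.0 CPM per kb), Efna1 (14.4), Slit2 (12.7), Efnb1 (8.18), Efnb2 (6.49), Efna4 (5.02), Slit3 (4.78), Efna5 (4.67) and Ntng2 (4.65). In FR the order was Efna1 (19.7 CPM per kb), Efnb2 (13.5), Efna4 (9.31), Slit2 (5.72), Efna5 (5.19), Efna3 (3.16), Efnb1 (2.92) and Slit3 (2.58), with Ntn1 at 1.13. Ephrins thus held the first 3 places in FR, and Ntn1 the first in WT. For receptors the order in WT was Epha2 (23.4 CPM per kb), Neo1 (16.7), Ephb4 (15.6), Ephb3 (10.6), Ephb6 (6.08), Ephb2 (5.55) and Unc5b (4.16). In FR it was Epha2 (32.7 CPM per kb), Ephb4 (23.7), Neo1 (22.8), Ephb3 (9.71), Ephb2 (8.16) and Unc5b (4.47), with Ephb6 at 0.479. The deposited length is 1 value per gene, so a change in the transcripts used would not show.

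The summed level of the 8 ephrin genes was 41.8 ± 0.664 CPM per kb in WT and 54.1 ± 1.37 CPM per kb in FR, and that of the 14 Eph receptor genes 63.3 ± 0.577 and 75.6 ± 1.21 CPM per kb (SD, n = 3 each). Within the ephrin sum, Efnb1 held 19.6% ± 0.964 in WT and 5.39% ± 0.137 in FR, and Efnb2 held 15.6% ± 0.182 and 24.9% ± 0.256 (SD, n = 3 each). Efna1 held 34.6% ± 0.933 in WT and 36.4% ± 1.47 in FR. Without division by length these shares were 18.9% and 19.8% for Efna1 and 27.5% and 43.8% for Efnb2, so Efna1 comes before Efnb2 only per length. Within the receptor sum, Epha2 held 37.0% ± 0.246 in WT and 43.2% ± 0.285 in FR, Ephb4 24.7% ± 0.611 and 31.3% ± 0.568, and Ephb3 16.8% ± 0.388 and 12.8% ± 0.399 (SD, n = 3 each). Ephb6 went from 9.6% ± 0.289 to 0.634% ± 0.131. Shares of a sum move together, so the shares of 1 family are not independent of each other.

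**Figure D4:**
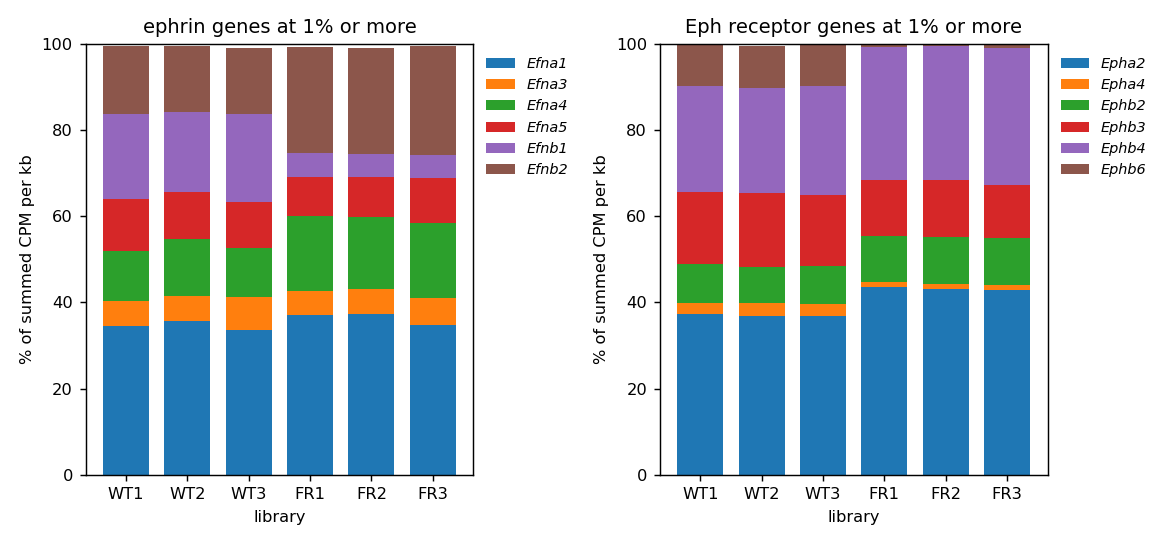
Share of the summed CPM per kb (vertical axis, %) held by each ephrin gene (left) and Eph receptor gene (right) that reaches 1% in a library, 1 bar per library. Efnb1 narrows from 20.4% at most in WT to 5.49% at most in FR while Efnb2 widens, and Ephb6 shrinks to under 1% in FR.

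Promoter sequence was taken from RefSeq (build GRCm38.p6), as the 250 bases before an annotated start, for 36 of the 41 genes in 41 windows. Dcc, Efnb3, Ntn1, Slit1 and Unc5d had no match. These are a description and were read by gene symbol, since the counts rest on another build. The 4 windows printed belong to a pair of related ligands and a pair of related receptors whose members differed in direction. Capitals mark GC boxes, the letters GGGCGG or their reverse complement CCGCCC, a motif bound by Sp1-type factors.
Efnb1, chrX:99135811-99136060, + strand: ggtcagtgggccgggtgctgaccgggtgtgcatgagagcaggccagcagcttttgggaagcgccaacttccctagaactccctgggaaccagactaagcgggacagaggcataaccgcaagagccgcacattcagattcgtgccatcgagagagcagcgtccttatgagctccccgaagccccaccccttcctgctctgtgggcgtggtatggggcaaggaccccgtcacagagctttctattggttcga (lower in FR)
Efnb2, chr8:8661243-8661492, - strand: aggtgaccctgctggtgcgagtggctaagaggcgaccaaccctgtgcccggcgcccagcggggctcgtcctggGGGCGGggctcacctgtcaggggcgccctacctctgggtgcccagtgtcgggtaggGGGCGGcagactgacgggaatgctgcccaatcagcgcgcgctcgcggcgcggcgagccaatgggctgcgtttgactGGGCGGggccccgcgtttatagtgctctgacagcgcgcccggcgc (higher in FR)
Ephb6, chr6:41605261-41605510, + strand: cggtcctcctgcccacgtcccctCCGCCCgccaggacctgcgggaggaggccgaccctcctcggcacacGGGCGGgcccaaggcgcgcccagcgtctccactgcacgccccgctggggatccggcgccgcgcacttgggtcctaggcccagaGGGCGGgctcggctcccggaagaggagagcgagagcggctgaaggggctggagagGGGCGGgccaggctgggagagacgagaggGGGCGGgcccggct (lower in FR)
Ephb4, chr5:137349859-137350108, + strand: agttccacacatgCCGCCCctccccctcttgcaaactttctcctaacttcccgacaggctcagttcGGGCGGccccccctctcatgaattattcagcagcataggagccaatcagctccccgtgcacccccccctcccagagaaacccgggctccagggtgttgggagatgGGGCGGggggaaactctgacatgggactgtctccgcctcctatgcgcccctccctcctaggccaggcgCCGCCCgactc (higher in FR)

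The Efnb1 window held 0 GC boxes and the Efnb2 window 3, whereas for the receptors the gene that fell held more: the Ephb6 window had 5 and the Ephb4 window 4. A GC box was present in 28 of the 41 windows (68.3%) and in 32.7% of all 32851 windows of this length. The member windows were also richer in G and C, with a median of 64.8% against 52.4%, and the ratio of observed to expected CpG was 0.687 against 0.373 (medians). On both strands, the CCAAT box (CCAAT) was found in 36.6% of member windows and 33.8% of all windows, the TATA box (TATAAA) in 4.88% and 12.4%, the E-box (CACGTG) in 4.88% and 6.02%, and the AP-1 site (TGAGTCA) in 0 of 41 windows and 4.46% of all. A match says only that the letters are there.

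Outside the ligands and receptors, 76 genes that act with them or downstream of them were listed, of which 64 were tested. In FR 26 were higher and 22 lower (median log2 fold change 0.04), a called share of 75% beside 70.1% of all tested genes. Of 16 extracellular partners and cofactors, 10 were tested, with 2 higher and 4 lower (60% called). Flrt2 and Flrt3, membrane proteins that bind UNC5 receptors, both fell. Flrt2 was at 39.8, 36.9 and 40.3 CPM in WT and 11.9, 11.9 and 11.1 CPM in FR (−1.74 ± 0.06 SE, edgeR adjusted p = 9.44e-20). Flrt3 was at 8.02, 7.61 and 7.53 CPM in WT and 1.14, 1.04 and 0.803 CPM in FR (−2.95 ± 0.17 SE, edgeR adjusted p = 4.58e-15). Of the neogenin ligands, Rgma did not pass (31.2 ± 0.279 and 30.9 ± 2.23 CPM, 95% interval of the log2 fold change −0.13 to 0.11) and Rgmb rose slightly, from 25.1 ± 2.43 to 29.2 ± 0.813 CPM (0.21 ± 0.06 SE, SD with n = 3 each). That call ended without WT replicate 2 (edgeR adjusted p = 0.0717) and against a 1.2-fold change (edgeR glmTreat adjusted p = 0.778). Adam10, the protease that cleaves ephrins on contact, fell from 193 ± 4.04 to 165 ± 2.78 CPM (SD, n = 3 each), a call that also ended against a 1.2-fold change (edgeR glmTreat adjusted p = 0.916).

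Of 20 tested exchange factors and GTPase-activating proteins, 11 were higher and 5 lower, a called share of 80% beside 70.1% of all tested genes (34.6% higher and 35.5% lower). The slit-Robo GTPase-activating proteins divided: Srgap1 rose from 6.67, 5.67 and 7.33 to 21.3, 21 and 21.1 CPM (log2 fold change 1.69 ± 0.09 SE, edgeR adjusted p = 9.69e-16). Srgap3 fell from 81.3, 80.7 and 80.9 to 44.5, 44.9 and 43.2 CPM (−0.87 ± 0.04 SE, edgeR adjusted p = 1e-17), and Srgap2 did not pass (−0.08, 95% interval −0.16 to 0.01), though it was called lower without WT replicate 2, without FR replicate 1 and with no filter (edgeR adjusted p = 0.0116, 0.0397 and 0.0319). Vav3, an exchange factor that binds activated Eph receptors, fell from 7.7, 6.67 and 6.24 to 0.364, 0.2 and 0.378 CPM (−4.47 ± 0.24 SE, edgeR adjusted p = 4.22e-16). Vav3 had only 7, 5 and 8 counts in the FR libraries and passed the filter through its WT counts, so the size of its fall is uncertain. Tiam1, a Rac exchange factor that also binds Eph receptors and ephrin-B1, rose from 20.4, 18.9 and 20.3 to 46.5, 44.6 and 47.5 CPM (1.22 ± 0.06 SE). Arhgef19, of the ephexin family, fell (−1.40 ± 0.07 SE), and Sos2, a Ras exchange factor, rose (0.48 ± 0.06 SE). Trio and Dock1, Rac exchange factors of netrin signalling, rose by 0.31 ± 0.03 and 0.26 ± 0.03 on the log2 scale. Both calls ended against a 1.2-fold change (edgeR glmTreat adjusted p = 0.0706 and 0.425).

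Of 10 tested actin and other effectors, 1 was higher and 7 lower, so 70% were lower, beside 35.5% of all tested genes. Enah, an actin regulator bound by Robo receptors, fell from 30.8, 29.9 and 32.8 to 9.14, 9.31 and 8.78 CPM (log2 fold change −1.78 ± 0.07 SE, edgeR adjusted p = 8.56e-19). Ablim1, an actin-binding protein tied to netrin responses, fell from 76.8, 73.5 and 73.6 to 23.4, 25.7 and 23.8 CPM (−1.61 ± 0.05 SE, edgeR adjusted p = 4.24e-22). Of 14 tested adaptors and phosphatases, 8 were higher and 4 lower (85.7% called). Inppl1, the lipid phosphatase SHIP2 that binds EphA2, rose by 0.64 ± 0.03 on the log2 scale, Grb10 by 0.61 ± 0.03 and Pick1, a PDZ protein that can bind B-type ephrins and Eph receptors, by 0.55 ± 0.07. The adaptor Nck1 rose from 26.2 ± 1.25 to 32.9 ± 2.14 CPM, a call that ended against a 1.2-fold change (edgeR glmTreat adjusted p = 0.103). Nck2 was at 13.3 ± 0.58 and 13.7 ± 1.59 CPM and did not pass (SD, n = 3 each). Of 10 tested kinases 4 were higher and 2 lower (60% called). The table deposited by the authors also tags genes with a pathway named axon guidance. Among its 215 genes that are not described above as ligands or receptors, 117 were tested, with 40 higher and 53 lower (median −0.03). That is 79.5% called and 45.3% lower, beside 70.1% and 35.5% of all tested genes, for a list taken up after the values had been seen.

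**Figure D5:**
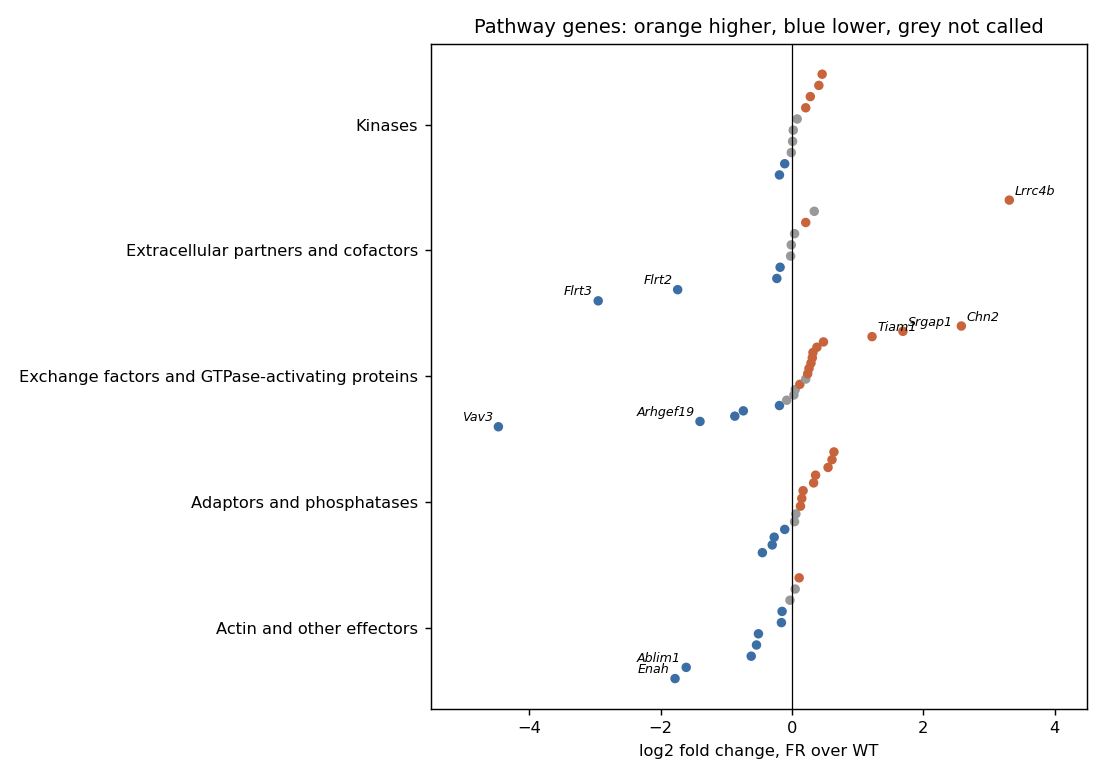
Log2 fold change (FR over WT) of the 64 tested pathway genes by role, 1 point per gene, with orange for higher, blue for lower and grey for not called. Genes past 2-fold are named. The fall of Vav3 is the largest, with at most 8 counts in an FR library, and Lrrc4b and Chn2, at the right, are below 2 CPM in every library.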

How the data were processed

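RNA of 6 MC3T3-E1 libraries, 3 WT and 3 FR, was measured by poly(A)-selected, paired-end sequencing. The deposited file is 1 gene table whose unit is expected counts, made with fastp, HISAT and RSEM on GRCm39 per the submitters' processing notes; versions, settings, annotation release and strand are not given in the sources used here. RSEM splits reads that match several genes by estimation. Of the values, 85.9% were whole, and 28 of the members' values were not. The deposited gene length served for levels per kb.

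Expected counts were rounded and filtered with filterByExpr of edgeR 4.0.16 (R 4.3.3), which left 14889 genes. The FR against WT test was edgeR's robust quasi-likelihood F-test with TMM factors and no further term, adjusted by Benjamini-Hochberg over all tested genes at 0.05. The SE is the log2 fold change over the root of F, and 95% intervals use the t quantile at the fit's degrees of freedom. CPM use the same factors. The steps were tested on simulated counts. Same-group libraries were compared pairwise by chi-square over genes, which gave 2.34 to 3.37 per degree of freedom, a spread beyond counting error. Each library was entered as 1 sample, but this spread cannot show that the cultures were separate.

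The members and lists were chosen with earlier results of these data known. Members with a mean of at least 1 CPM in a group are given per library. Among pathway genes called and with at least 5 CPM in a group, the text names the top 6 in each direction by log2 fold change; 12 genes are named whatever their values, and Flrt2, Flrt3 and Srgap1 are in both sets. Alternatives were library size alone, RLE size factors, a minimum mean of 1 CPM, no filter, a non-robust fit, a replicate block, DESeq2 1.42.0, limma-voom (limma 3.58.1), glmTreat at 1.2-fold, each library left out, and levels not divided by length. Exon overlaps come from GENCODE on GRCm38, another build, by gene identifier (41 of 41 matched). Orientation was checked on the last bases of the full source sequences, of which the promoter windows are the first 250 bases. Of these 41 sequences, 36 ended within the start of a GENCODE transcript of the same gene as given, and 0 when reversed. Plots were made in Python 3.11.15 with matplotlib 3.10.9.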

Additional observations from a re-analysis of the deposited data

How the results depend on the processing

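Of the 16 called ligand and receptor genes, 15 kept direction and call in each of the 15 alternative fits, and Ephb3 lost its call in 4 (log2 fold change −0.17 to −0.10 with a library left out). Against a 1.2-fold change with glmTreat, pathway genes went from 26 higher and 22 lower to 11 and 12, and all tested genes from 5157 and 5283 to 2879 and 3497, since that test asks for a larger change. With a library left out, 7 to 8 members were higher and 8 to 10 lower. Values that did not pass and turned in sign were those of Efnb3 (−0.04 to 0.81), Nck2 (−0.04 to 0.13) and Rgma (−0.07 to 0.03). The replicate numbers did not pair the libraries: correlations of same-numbered deviations were 0.009, −0.034 and −0.063. With the replicate block the members stayed at 7 higher and 9 lower, and all tested genes were 5070 higher and 5222 lower. The median log2 fold change of all genes stayed between −0.02 and 0.01. Without division by length, 33 of 52 shares moved by at least 1 SD.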
